A study of Mus musculus with 8 samples.

Results

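Medium and Small hematopoietic stem cells (HSCs) were compared, with 4 of the 8 samples of the series: Medium 1, Medium 2, Small 1 and Small 2. These libraries were chosen by the size name in the sample titles, and libraries with the same number in the titles were set against each other. All groups were HSCs from bone marrow of C57BL/6J mice, with no genetic change or treatment named. Age, sex and the number of animals are not given in the labels used here. Lineage-positive marrow cells were depleted, antibodies to CD117, Sca-1, CD48 and CD150 were used in the sort, and size was gated by forward and side scatter (FSC-A and SSC-A). Small cells were the smallest 10% of the HSC preparation. Medium cells lay within 10% of its mean size, Large cells were the largest 10%, and the All samples were not split by size. Each library was made from 10000 cells in G0/1, the phase before DNA synthesis. The labels do not say whether the 2 libraries of a group came from separate animals, so the p-values rest only on how far these libraries differ from each other, and that spread may be technical.

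HSCs renew themselves and give rise to every blood lineage. In adult marrow most of them are quiescent, and they are known for a low rate of protein synthesis. Ribosomes set the capacity for that synthesis: each is built from ribosomal RNA and a fixed set of proteins, and the mRNAs of those proteins carry a pyrimidine-rich start through which the mTOR pathway controls their translation. Cell size rises with growth and protein content, and light scatter in a sorter follows size. Values below are relative levels within a library, so a gene can hold a larger share of the reads without more RNA per cell.

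The 4 libraries held 13698362 to 15896952 estimated counts, and levels are given as CPM, the counts scaled to a library total of 1000000 with a further scaling between libraries. The transcripts of the 4 sort antigens were present in every library. Kit, the gene of CD117, read 852 and 1196 CPM in Small 1 and Small 2 against 662 and 841 CPM in Medium 1 and Medium 2, so both Medium values were below both Small values. Ly6a (Sca-1) read 45.7 and 288 CPM in Small and 90.4 and 366 CPM in Medium. Slamf1 (CD150) read 10.8 and 8.71 CPM in Small and 22.1 and 8.74 CPM in Medium, and Cd48 read 136 and 62.7 CPM in Small and 76.8 and 66.1 CPM in Medium. Ly6a separated the replicate numbers more than the sizes. Genes of mature granulocytes and monocytes, cells that lineage depletion should remove, did the same: their summed level over 19 genes was 35587 and 11101 CPM in Small 1 and 2 and 21521 and 7255 CPM in Medium 1 and 2. Each Medium library was below the Small library of its own number, while the groups overlapped. None of the 19 genes was at 0. Fewer cells of a type and less RNA per cell cannot be told apart in such libraries. The part of these cells in the differences below was not tested, and values within each number are given throughout.

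Across the 16066 genes tested, edgeR's quasi-likelihood test over all 8 libraries called 0 genes between Medium and Small (0% of the genes tested) at a Benjamini-Hochberg adjusted p under 0.05. The smallest adjusted p was 1, and 695 genes had an unadjusted p under 0.05, 451 higher and 244 lower in Medium, 2.81% and 1.52% of the genes tested. If no gene differed, 803 would be expected under that threshold. This fit had no term for the replicate number, because the labels do not say what a number shares. With the number added as a block, edgeR gave 2007 genes at an unadjusted p under 0.05 (981 higher, 1026 lower). It still called 0 at the adjusted threshold. Without the block, DESeq2 called 43 genes, 35 of them higher in Medium, and edgeR without a filter on low counts called 73. Within the replicate numbers, 30.1% of the genes were higher in Medium in both and 29.3% were lower in both, while 38.7% pointed in opposite directions. Both Medium libraries lay above both Small libraries for 16.6% of the genes and below both for 14.3%. A difference of at least 1 on the log2(CPM + 2) scale within both numbers was found for 96 genes higher in Medium (0.598%) and 29 lower (0.181%). Differences of that size in opposite directions were found for 17 genes higher in number 1 and 18 lower in number 1. With the replicate numbers crossed between the sizes, 93 genes were higher and 21 lower by at least 1 in both pairs. Pairing by the same number therefore changed the higher count little. Of the 96 higher genes 57 were protein coding (59.4%, against 82.2% of all genes tested), and 17 were unconfirmed models of the annotation class TEC (17.7% against 3.45%). Of the 29 lower genes 24 were protein coding (82.8%).

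**Figure D1:**
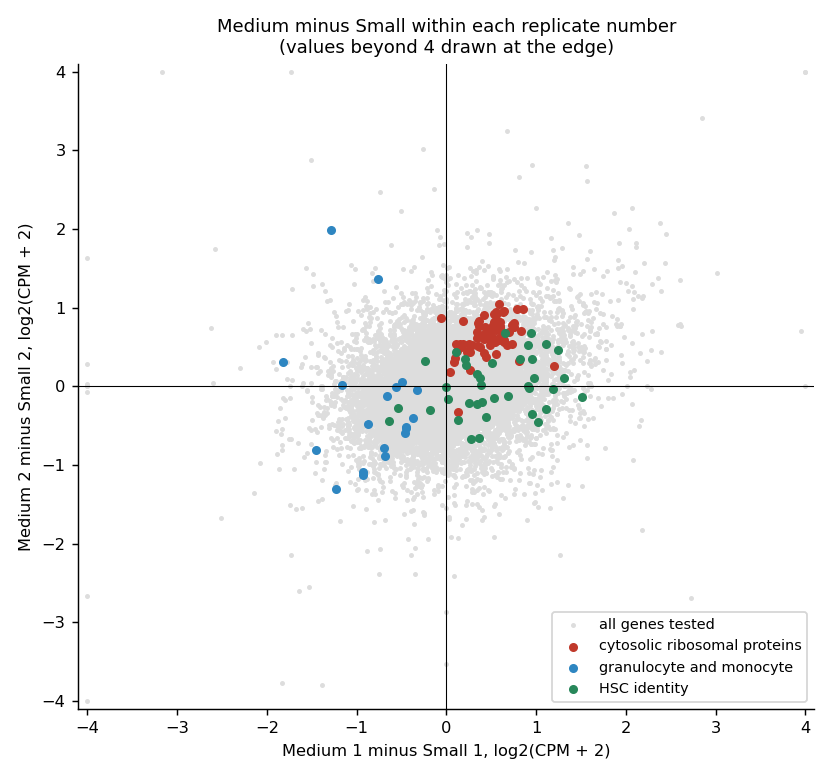
Each point is a gene, with Medium 1 minus Small 1 on the horizontal axis and Medium 2 minus Small 2 on the vertical axis, both in log2(CPM + 2). Grey points are all 16066 genes tested. The 79 ribosomal protein genes (red) lie together in the upper right, where both differences are positive, apart from 2 genes; the 38 HSC identity genes (green) spread along the horizontal axis, and 14 of the 19 granulocyte and monocyte genes (blue) lie in the lower left.

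The genes of the cytosolic ribosomal proteins, which form the ribosome together with ribosomal RNA, were higher in Medium than in Small as nearly the whole list. Of the 79 genes listed, all were tested and 77 were higher in Medium within both numbers (97.5%, against 30.1% of all genes). Both Medium libraries exceeded both Small libraries for 73 of them (92.4%, against 16.6%), and for none were both below. Their summed level was 22909 and 20134 CPM in Small 1 and 2 and 30664 and 30528 CPM in Medium 1 and 2, with means of 21521 ± 1962 and 30596 ± 96 CPM (SD, n = 2 each), or 1.42-fold. The ratio was 1.34 in number 1 and 1.52 in number 2. The median difference over the genes was 0.57 (0.48 in number 1 and 0.66 in number 2), beside a median of 0.00 over all genes tested. In the Large libraries the sum was 29838 and 26602 CPM and in the All libraries 25316 and 24894 CPM. None of the 79 passed the adjusted threshold in edgeR, and 51 had an unadjusted p under 0.05, all higher in Medium (64.6%, against 2.81% of all genes). DESeq2 called Rps20 and Rpl37a. Removing the trend of the differences on transcript length, since these mRNAs are short, left a median of 0.45. Among all tested genes in the shortest 10%, both Medium libraries were above both Small libraries for 29.7% of those in the lowest 20% by GC content and 35.6% of those in the highest 20%.

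Rplp1, Rps20 and Rps21 were taken as list members with groups that did not overlap and the largest agreeing differences. Their gaps and p-values therefore describe that choice. Rplp1, a protein of the stalk that binds elongation factors, read 197 and 163 CPM in Small 1 and 2 and 341 and 325 CPM in Medium 1 and 2, with a fitted log2 fold change of 0.89 (SE 0.19, unadjusted p = 0.0025 in edgeR's quasi-likelihood test). Rps20, of the small subunit, read 151 and 153 CPM in Small and 257 and 267 CPM in Medium (log2 fold change 0.79, SE 0.17). Rps21, also of the small subunit, read 54.8 and 37.6 CPM in Small and 101 and 76.5 CPM in Medium (0.94, SE 0.29). For these genes the lowest Medium library stood well clear of the highest Small library, as the choice favored. Rpl3 and Rplp0 were among the ribosomal protein genes with the highest mean CPM. Rpl3 read 1000 and 1209 CPM in Small and 1195 and 1400 CPM in Medium, so its groups overlapped, and Rplp0 read 1115 and 931 CPM in Small and 1213 and 1269 CPM in Medium. The fitted log2 fold changes of the list ran from -0.14 to 0.94. Among the 6 members whose groups overlapped were Rpl3, Rpl5, Rpl10, Rpl27 and Rps7. Only Rpl5 was lower in number 2, at 36.6 CPM in Small 2 and 28.8 CPM in Medium 2, and only Rpl10 was lower in number 1, at 78.6 CPM in Small 1 and 75.2 CPM in Medium 1. Ribosomal protein genes have many processed pseudogene copies in the genome, and reads shared with those were split by estimation.

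**Figure D2:**
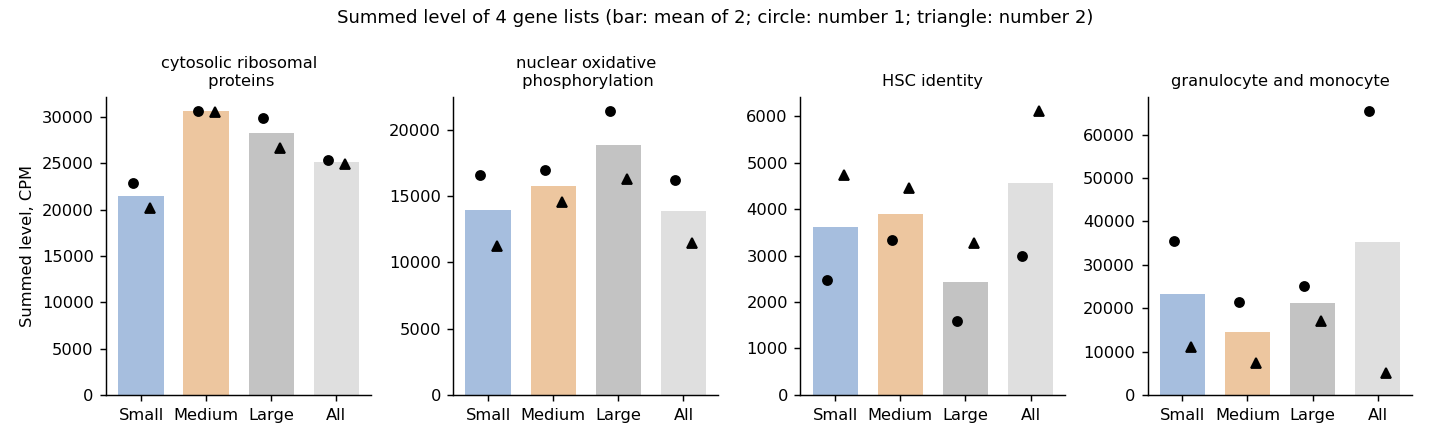
Bars give the mean summed level in CPM of 4 gene lists over the 2 libraries of each group; circles are number 1 and triangles number 2. The ribosomal protein sums of both Medium libraries stand above both Small libraries, while the HSC identity and the granulocyte and monocyte sums are separated more by replicate number than by size.

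The pyrimidine-rich start of these mRNAs was searched for in their promoters. RefSeq (GRCm38.p6) gave a promoter for 58 of the 79 genes, and 17 of the 58 (29.3%) had an oligopyrimidine start, searched on the transcribed strand as a C followed by at least 6 further C or T bases and beginning within 2 bases of the annotated start, against 4.05% of 11006 tested genes with a promoter. The 4 shown have the largest difference, taken as the smaller of the 2 numbers, among those 17. Each stretch runs from 50 bases before the first transcribed base to 20 bases from it. Capitals mark the bases matched by the search, which can begin inside a longer pyrimidine run.
Rps21, chr2:180257329-180257398, plus strand: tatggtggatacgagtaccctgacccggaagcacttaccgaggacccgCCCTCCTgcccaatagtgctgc
Rpl27a, chr7:109519145-109519214, plus strand: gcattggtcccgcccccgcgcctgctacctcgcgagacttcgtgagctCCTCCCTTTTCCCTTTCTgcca
Rps15a, chr7:118116128-118116197, minus strand: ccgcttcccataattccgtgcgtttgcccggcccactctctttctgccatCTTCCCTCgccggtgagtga
Rps27, chr3:90213629-90213698, minus strand: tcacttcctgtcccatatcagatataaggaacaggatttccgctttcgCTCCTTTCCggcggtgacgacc
Rpl27a, with 18 bases matched, read 67.1 and 67.5 CPM in Small and 121 and 111 CPM in Medium. Rps15a read 152 and 109 CPM in Small and 238 and 213 CPM in Medium, and Rps27 read 203 and 231 CPM in Small and 307 and 390 CPM in Medium. Of 429 genes outside the list with such a start, 15.4% had both Medium libraries above both Small libraries and 15.2% had both below. Of 10519 genes without one the shares were 14.2% and 16%. The search found a run in only 29.3% of the ribosomal protein promoters, so it may miss such starts. A part of the run in the differences was not tested.

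Other parts of the protein synthesis machinery did not follow as a group. The median of 32 initiation and elongation factors was 0.07 (0.03 and 0.11 within the numbers), with 7 genes above in both Medium libraries (21.9%, against 16.6% of all genes) and 4 below (12.5%, against 14.3%). Eif5b, which joins the ribosomal subunits, read 13 and 9.43 CPM in Small and 40.1 and 23.7 CPM in Medium (log2 fold change 1.51, SE 0.44). Eif3a, the largest subunit of initiation factor 3, read 111 and 101 CPM in Small and 238 and 172 CPM in Medium. Eef1b2, an exchange factor for elongation factor 1, read 200 and 203 CPM in Small and 317 and 311 CPM in Medium (0.64, SE 0.17). Eef1a1, Eif5a and Eif1, the factors with the highest mean CPM, had fitted log2 fold changes of 0.14, -0.06 and 0.05. The median of 34 ribosome biogenesis genes was 0.02, with 4 above and 3 below, and that of 20 aminoacyl-tRNA synthetases was -0.09, with 1 above and 4 below.

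Genes of the mitochondrion gave a positive median that depended on the replicate number. Of 75 nuclear genes of oxidative phosphorylation 51 were higher in Medium in both numbers (68%, against 30.1% of all genes), but both Medium libraries exceeded both Small libraries for only 12 (16%, against 16.6%). Their median difference was 0.36, at 0.10 in number 1 and 0.58 in number 2, and it was -0.04 without Small 2 and 0.20 with the trends on GC content and length removed. The sums were 16618 and 11267 CPM in Small 1 and 2 and 16958 and 14596 CPM in Medium 1 and 2. Uqcrh, a subunit of complex III, read 154 and 115 CPM in Small and 205 and 189 CPM in Medium, and Cox7a2l, a factor that joins respiratory complexes, read 88.7 and 107 CPM in Small and 128 and 157 CPM in Medium. Atp5g3, a subunit of the ATP synthase ring, read 255 and 179 CPM in Small and 336 and 287 CPM in Medium. Atp5b, Atp5a1 and Sdha, the 3 with the highest mean CPM, had fitted log2 fold changes of -0.03, -0.07 and -0.22. The 48 mitochondrial ribosomal proteins had a median of 0.19, at 0.03 and 0.38 within the numbers and -0.09 without Small 2, with 5 above (10.4%) and 0 below.

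The 13 mRNAs encoded in the mitochondrial genome had a median of 0.60, at 0.99 in number 1 and 0.20 in number 2, and 7 of them were above in both Medium libraries (53.8%, against 16.6% of all genes). With the trends on GC content and transcript length removed the median was 0.23, and without Small 1 it was 0.30. mt-Nd6, the subunit of complex I encoded on the other strand, read 8.3 and 21.1 CPM in Small and 60.6 and 38.1 CPM in Medium (log2 fold change 1.75, SE 0.51). mt-Nd4 read 150 and 250 CPM in Small and 476 and 321 CPM in Medium (0.99, SE 0.33). The most abundant by CPM, mt-Co1, read 1674 and 3097 CPM in Small and 2757 and 3027 CPM in Medium, and mt-Atp6 and mt-Cytb overlapped between the groups as well. Small 1 was the lowest of the 4 libraries in these 3 genes, while Small 2 lay within or above the Medium values. The sum over the 13 was 6410 and 10341 CPM in Small and 11496 and 9961 CPM in Medium. Near-identical nuclear copies on chromosome 1 held a further 4066 to 6634 CPM. Together the mRNAs and these copies read 10476 and 16869 CPM in Small and 17600 and 16595 CPM in Medium, so the groups overlapped. Reads of these copies and of the mitochondrial genes can be assigned to either, so values of single genes are uncertain. mt-Co3 read 52.1 and 163 CPM in Small and 330 and 279 CPM in Medium. Gm10925, a copy at chr1:24613974-24614651 (GRCm38), read 130 and 39.1 CPM in Small and 0 in both Medium libraries, at least 454.5-fold lower in Medium against a floor of 3 counts per library. Its neighbour Gm28437, at chr1:24613189-24613971, read 2794 and 4177 CPM in Small and 4108 and 4195 CPM in Medium. These copies and the mitochondrial ribosomal RNAs were chosen after their values were seen. mt-Rnr1, the small ribosomal RNA, read 294 and 427 CPM in Small and 893 and 707 CPM in Medium (1.15, SE 0.32). mt-Rnr2, the large one, read 1347 and 2040 CPM in Small and 3311 and 2937 CPM in Medium (0.88, SE 0.25).

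**Figure D3:**
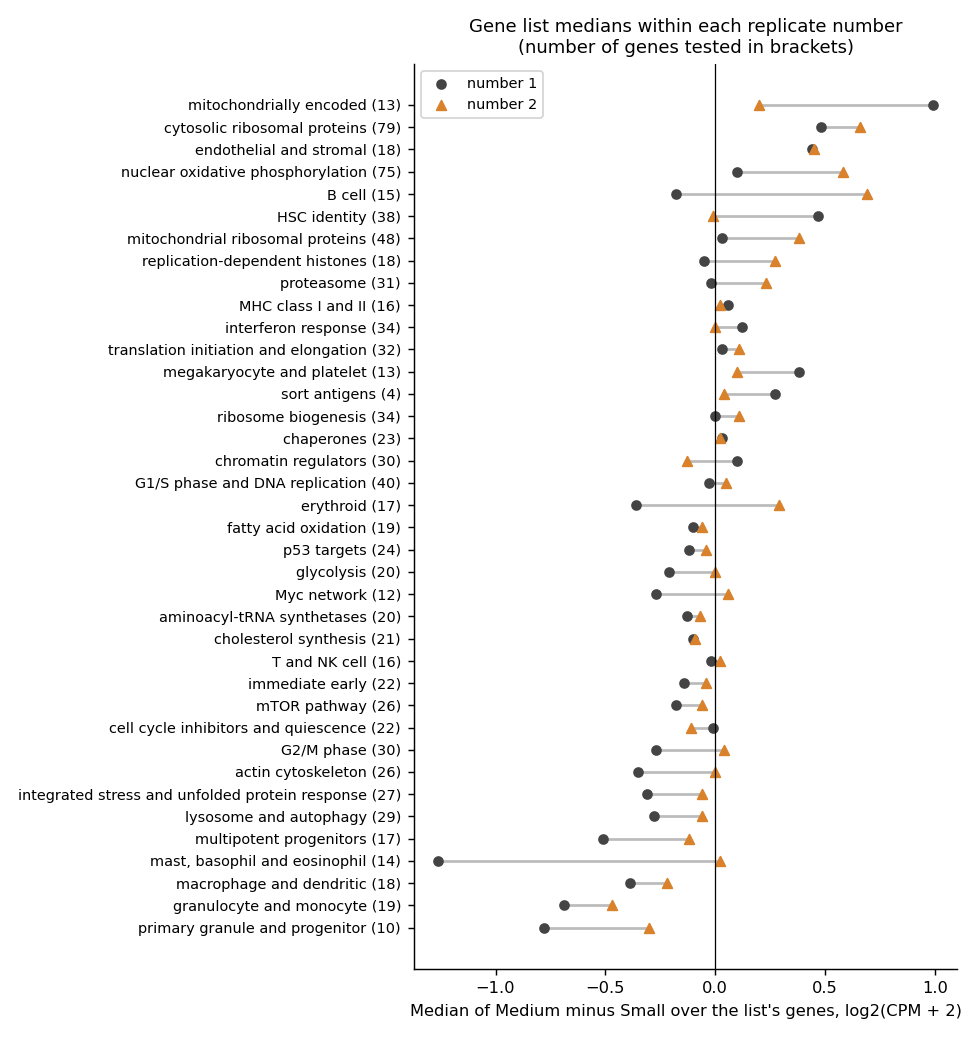
Each row is a gene list with the number of genes tested in brackets. Circles and triangles are the median of Medium minus Small, in log2(CPM + 2), in number 1 and number 2. The ribosomal protein list reads 0.48 and 0.66, while the HSC identity list reads 0.47 and -0.01.

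The 12 named genes with the largest agreeing difference upward included Atrx, Usp34, Tpr, Nipbl and Cenpe. They were ranked by the smaller of the 2 within-number differences, so the values below are a description of that choice. Atrx, a chromatin remodeler at repeats (chrX), read 25.7 and 21.1 CPM in Small and 111 and 90 CPM in Medium (log2 fold change 2.11, SE 0.39). Usp34, a deubiquitinase, read 9.34 and 7.64 CPM in Small and 46.9 and 32.2 CPM in Medium (2.22, SE 0.36), and Tpr, of the nuclear pore basket, read 15.1 and 17.9 CPM in Small and 90.3 and 57.2 CPM in Medium (2.16, SE 0.40). In all 3 genes the groups were several-fold apart. Nipbl, the loader of cohesin, read 7.78 and 10.1 CPM in Small and 34.9 and 32.3 CPM in Medium. Rock1, a kinase that acts on the actin cytoskeleton, read 9.79 and 10.3 CPM in Small and 43.6 and 33.6 CPM in Medium, and Ccdc88a, an actin-binding signaling protein, read 3.76 and 3.07 CPM in Small and 24.6 and 13.1 CPM in Medium. DESeq2 called Atrx, Usp34, Tpr, Nipbl, Rock1 and Ccdc88a, with adjusted p from 0.00015 for Usp34 to 0.036 for Nipbl, while edgeR's adjusted p was 1 for each.

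Cenpe, Cenpf and Knl1, of the kinetochore that attaches chromosomes to the spindle, were also among the 12. Cenpe read 5.32 and 1.64 CPM in Small and 25.5 and 9.11 CPM in Medium (2.31, SE 1.00). Cenpf read 7.26 and 1.64 CPM in Small and 24 and 7.82 CPM in Medium, and Knl1 read 8.56 and 2.86 CPM in Small and 33.3 and 10.8 CPM in Medium. In these genes number 1 was higher than number 2 in both sizes, and Medium 2 lay closer to Small 1 than to Medium 1. The 30 genes of the G2/M phase list as a whole had a median of -0.13 (-0.27 and 0.04 within the numbers), with 7 higher in both numbers (23.3%, against 30.1% of all genes). That median ran from -0.87 without Small 2 to 0.60 without Small 1. The 40 genes of the G1/S phase list had a median of 0.01, from -0.38 without Small 2 to 0.45 without Medium 2. Hmgn5, a nucleosome-binding protein, read 7.39 and 3.14 CPM in Small and 25.9 and 13.8 CPM in Medium, and Bod1l, which protects replication forks, read 2.66 and 8.5 CPM in Small and 35.5 and 26.6 CPM in Medium. Lars2, the mitochondrial leucyl-tRNA synthetase, read 167 and 164 CPM in Small and 481 and 457 CPM in Medium (1.5, SE 0.42). It is not in the list of 20 aminoacyl-tRNA synthetases, whose fitted log2 fold changes ran from -0.48 to 0.32. Just outside the 12 was Akap9, with a smaller difference of 1.38 beside 1.40 for Knl1, the last inside. Malat1, an abundant nuclear RNA chosen after its values were seen, read 2429 and 2779 CPM in Small and 4414 and 4883 CPM in Medium (0.84, SE 0.38).

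**Figure D4:**
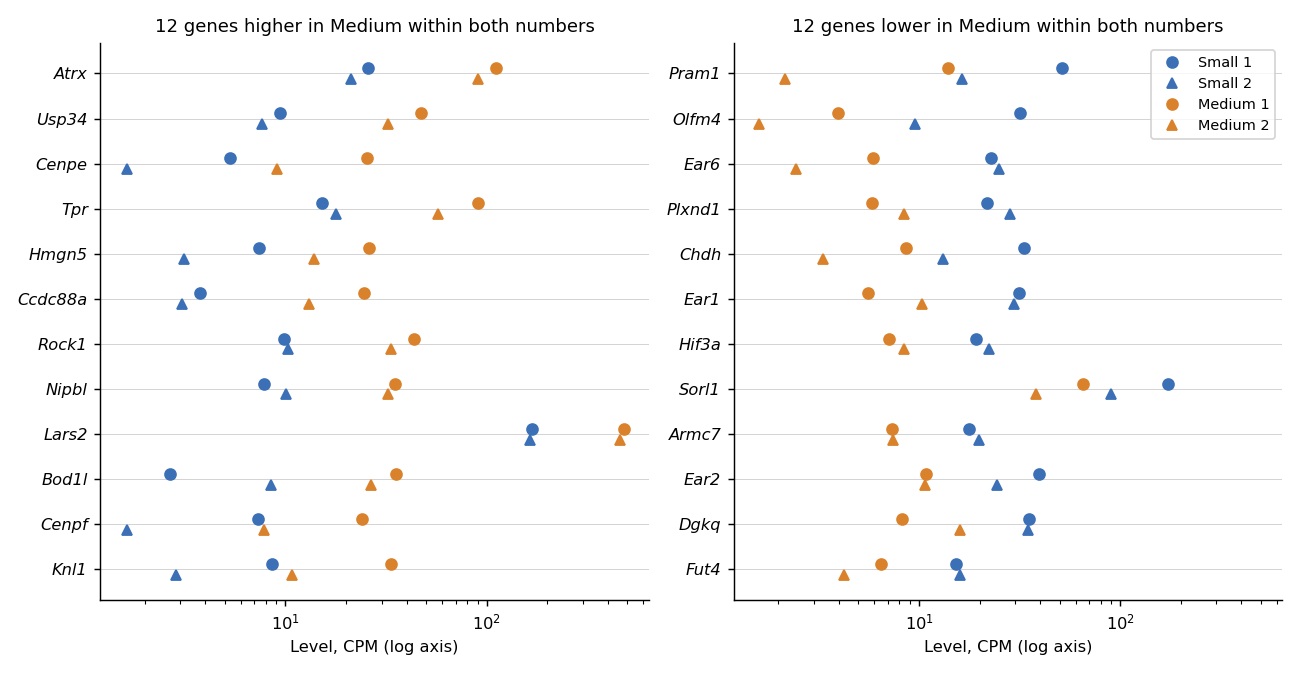
Level in CPM on a log axis of the 12 genes with the largest agreeing difference in each direction; circles are number 1, triangles number 2, blue Small and orange Medium. In every row both orange symbols lie on the same side of both blue ones, because the genes were chosen that way; the gap is wide for Atrx, Usp34, Tpr and Lars2 and narrow for Cenpf and Pram1.

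The choice of these 12 genes did not name length or GC content, but its minimum of 10 CPM was not scaled by transcript length. The longest transcript of the 12 had a median length of 8643 bases (1934 to 12200), against 3015 bases over all genes tested, and 10 of the 12 were in the longest 10%. Their median GC content was 42%, against 49.1%, and 11 of the 12 lay below that of all genes. Over the 96 genes higher by at least 1 within both numbers, the median length was 4026 bases and the median GC content 42.95%. Over the genes with both Medium libraries above both Small libraries, these were 2566 bases and 46.89%. Over all genes the differences varied with both properties, and differently in each replicate number. Spearman's rho across 16017 genes, which are not independent replicates, was -0.27 with GC content and -0.03 with length in number 1, and -0.07 and -0.26 in number 2. Among 431 genes in both the longest 10% and the lowest 20% by GC content, the median difference was 0.38 in number 1 and 0.01 in number 2, and 31.3% had both Medium libraries above both Small libraries, against 16.6% of all genes. Among 173 genes in the longest 10% and the highest 20% by GC content the medians were -0.11 and -0.36, and 27.7% had both below. Among the shortest 10% the share with both above was 29.7% at the lowest and 35.6% at the highest GC content, so short genes were above more often than all genes at either end. The cause of these trends was not tested, and no file used here gives read coverage along transcripts.

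**Figure D5:**
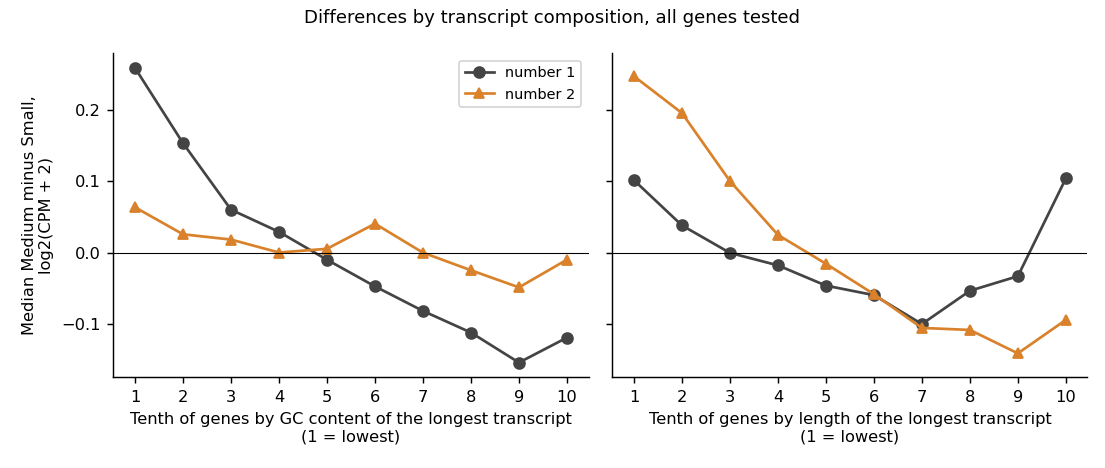
Median of Medium minus Small, in log2(CPM + 2), over 10% classes of the genes tested, ordered by GC content (left) and by length (right) of the longest transcript; circles are number 1 and triangles number 2. In number 1 the median runs from 0.26 in the lowest 10% by GC content to -0.12 in the highest, and in number 2 it runs from 0.25 in the shortest 10% to -0.09 in the longest.

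Among the genes lower in Medium, those of the actin cytoskeleton and its regulators were the list with the largest count that was not a marker list of mature cells. Both Medium libraries were below both Small libraries for 10 of 26 genes (38.5%, against 14.3% of all genes) and above for 0. The median was -0.16, at -0.35 in number 1 and 0.00 in number 2, so the list as a whole was not lower in number 2. The 10 were Flna, Mrtfa, Myh9, Tln1, Msn, Vcl, Ezr, Actr3, Actg1 and Arpc5. Flna, Mrtfa and Myh9 were taken as the members among these with the largest agreeing differences. Their gaps, p-values and calls therefore describe that choice. Flna, which cross-links actin filaments and ties them to integrins (chrX), read 1052 and 823 CPM in Small and 492 and 444 CPM in Medium (-1.0, SE 0.23, unadjusted p = 0.0031 in edgeR's quasi-likelihood test). Mrtfa, the actin-sensing cofactor of serum response factor, read 68.4 and 65.3 CPM in Small and 32.2 and 34.5 CPM in Medium (-1.0, SE 0.21), and DESeq2 called it. Myh9, the heavy chain of non-muscle myosin, read 229 and 212 CPM in Small and 127 and 123 CPM in Medium (-0.82, SE 0.28). Large 1 and 2 read 562 and 672 CPM for Flna, between the Medium and the Small values, and 31.7 and 30.4 CPM for Mrtfa, close to Medium. Actin itself differed less: Actb read 2500 and 2286 CPM in Small and 2679 and 2326 CPM in Medium, and Actg1 read 2114 and 2357 CPM in Small and 1671 and 2014 CPM in Medium. Tmsb4x, which binds actin monomers, read 2733 and 1357 CPM in Small and 2274 and 1728 CPM in Medium.

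Serum response factor binds the CArG box, searched by that name on both strands, whose exact form reads the same on each. It was found in the RefSeq promoters (300 bases, from 250 before the start to 50 after it) of 4 of 25 actin list genes (16%), against 1.32% of 11006 tested genes. Of these 4 genes, Srf and Arpc4 were not among the members with both Medium libraries below both Small libraries. A part of the box in the differences was not tested. The 2 stretches are those of Vcl and Actg1, which were among those members, and capitals mark the box.
Vcl, chr14:20929148-20929205, plus strand: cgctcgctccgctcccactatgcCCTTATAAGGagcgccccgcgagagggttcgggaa
Actg1, chr11:120348551-120348610, minus strand: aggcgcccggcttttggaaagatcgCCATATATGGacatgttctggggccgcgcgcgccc
Vcl, which links integrins to actin, read 84 and 97 CPM in Small and 66.1 and 40 CPM in Medium (-0.77, SE 0.38). The other 8 lower members held no exact box in this window or had no promoter in the table.

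The mTOR pathway, which couples nutrients to growth, had a median of -0.12 over 26 genes (-0.18 and -0.06 within the numbers, and -0.04 with the trends on GC content and length removed). Both Medium libraries were below both Small libraries for 8 (30.8%, against 14.3% of all genes) and above for 2 (7.69%, against 16.6%). The lower members stood on both sides of the pathway. Akt1, an activating kinase, read 276 and 303 CPM in Small and 190 and 226 CPM in Medium (-0.47, SE 0.19), and Akt2 read 110 and 130 CPM in Small and 81.5 and 95 CPM in Medium. Tsc2, of the complex that restrains mTOR, read 91.6 and 116 CPM in Small and 63.8 and 74.8 CPM in Medium (-0.58, SE 0.23), and Mtor itself read 33.6 and 42.6 CPM in Small and 24.6 and 32.5 CPM in Medium. Rictor, of the second mTOR complex, and Rps6kb1, the S6 kinase, were the 2 higher members, the latter at 35.9 and 31.3 CPM in Small and 62 and 43.8 CPM in Medium. Rheb, the direct activator, read 155 and 244 CPM in Small and 165 and 267 CPM in Medium.

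Lysosome and autophagy genes had a median of -0.20 over 29 genes (-0.28 and -0.06 within the numbers, and 0.00 without Medium 1), with 14 lower in both numbers (48.3%, against 29.3% of all genes) and 7 below in both Medium libraries (24.1%, against 14.3%). A pair of subunits of the proton pump that acidifies the lysosome were among the 7: Atp6v1b2 read 300 and 280 CPM in Small and 234 and 223 CPM in Medium, and Atp6v1a read 114 and 106 CPM in Small and 92.2 and 79 CPM in Medium. Ctsd and Ctsb, the proteases cathepsin D and B, had fitted log2 fold changes of -0.29 (SE 0.18) and -0.27 (SE 0.18), and Map1lc3b, the autophagosome marker, -0.03.

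Of the 12 named genes with the largest agreeing difference downward, several are known from granulocytes and eosinophils. Pram1, an adaptor of myeloid cells, read 51.1 and 16.4 CPM in Small and 14 and 2.16 CPM in Medium (-2.06, SE 1.46). Olfm4, a neutrophil granule protein, read 31.8 and 9.5 CPM in Small and 3.94 and 1.6 CPM in Medium (-2.89, SE 1.08), and Fut4, which makes the CD15 sugar of myeloid cells, read 15.3 and 15.9 CPM in Small and 6.44 and 4.25 CPM in Medium. The eosinophil ribonuclease genes Ear1, Ear2 and Ear6 stood together: Ear1 read 31.4 and 29.8 CPM in Small and 5.57 and 10.4 CPM in Medium, Ear2 read 39.3 and 24.4 CPM against 10.8 and 10.7 CPM, and Ear6 read 22.8 and 25.1 CPM against 5.94 and 2.46 CPM. They are close copies of each other, so reads between them are uncertain. In Large 1 and 2 Ear1 read 6.65 and 59.8 CPM, the latter above all 4 values. The list of mast cell, basophil and eosinophil genes as a whole did not share a direction: of 14 genes tested 7 were lower in both numbers (50%, against 29.3% of all genes) and 1 was higher in both, with a median of -1.26 in number 1 and 0.02 in number 2. Over both numbers its median was -0.30, from -1.93 without Small 2 to 0.37 without Small 1. The eosinophil granule genes Prg2 and Epx overlapped between the sizes and were lower within both numbers: Prg2 read 606 and 177 CPM in Small and 231 and 10.8 CPM in Medium, and Epx read 273 and 26.3 CPM in Small and 75.5 and 0.0616 CPM in Medium.

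The rest of the 12 are not markers of 1 mature type. Plxnd1, a semaphorin receptor, read 21.8 and 28.4 CPM in Small and 5.82 and 8.38 CPM in Medium (-1.82, SE 0.49). Dgkq, a diacylglycerol kinase, read 35.3 and 35 CPM in Small and 8.19 and 15.9 CPM in Medium (-1.54, SE 0.41), and Hif3a, a relative of the hypoxia factors, read 19.2 and 22.4 CPM in Small and 7.07 and 8.44 CPM in Medium (-1.42, SE 0.45). Armc7 read 17.7 and 19.9 CPM in Small and 7.38 and 7.39 CPM in Medium (-1.35, SE 0.37). For Plxnd1, Hif3a and Armc7 the libraries within a size lay close together, while the Medium libraries differed from each other for Dgkq. Sorl1, a sorting receptor, read 173 and 90 CPM in Small and 65 and 38.3 CPM in Medium, and Chdh, of choline oxidation, read 33.4 and 13.1 CPM in Small and 8.57 and 3.33 CPM in Medium. The 12 had a median transcript length of 3438 bases and a median GC content of 52.3%. Nhsl2, with a smaller difference of 1.03, was the first outside, beside 1.04 for Fut4.

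The primary granule list and the granulocyte and monocyte list had negative medians within both numbers, with wide overlap between the groups. All 10 primary granule and progenitor genes were tested and 9 were lower in both numbers (90%, against 29.3% of all genes), with a median of -0.54 (-0.78 and -0.30) that was 0.10 without Small 1 and -0.07 without Medium 2. Mpo, the myeloperoxidase of the primary granule, read 13617 and 3462 CPM in Small 1 and 2 and 5516 and 2404 CPM in Medium 1 and 2 (-1.11, SE 1.40), and Elane, neutrophil elastase, read 3934 and 1081 CPM against 2117 and 935 CPM. Ctsg, cathepsin G, read 1057 and 327 CPM against 693 and 306 CPM. For all 3 genes Medium 1 exceeded Small 2. The 3 members whose groups did not overlap (30%, against 14.3% of all genes) were receptors and a factor of the same lineage. Csf1r read 121 and 55.7 CPM in Small and 39.9 and 30 CPM in Medium (-1.34, SE 0.50). Csf3r read 296 and 263 CPM in Small and 160 and 209 CPM in Medium (-0.60, SE 0.22). Gfi1 read 49.7 and 46.1 CPM in Small and 29 and 37.1 CPM in Medium. Of the 19 granulocyte and monocyte genes 14 were lower in both numbers (73.7%, against 29.3%). Only 1 was below in both Medium libraries (5.26%, against 14.3%). The list's median was -0.53 (-0.69 and -0.47), and it turned to 0.35 without Small 1 and to 0.13 without Medium 2. Ngp, a neutrophil granule protein, read 8306 and 2562 CPM in Small and 4373 and 1203 CPM in Medium. S100a8 read 5841 and 1551 CPM against 4279 and 1077 CPM, Lyz2 read 4802 and 1939 CPM against 3023 and 1785 CPM, and Itgam read 168 and 97.3 CPM against 90.6 and 69.5 CPM.

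Of 18 macrophage and dendritic genes tested, of 19 listed, 10 were below in both Medium libraries (55.6%, against 14.3% of all genes). Their median was -0.53, at -0.39 in number 1 and -0.22 in number 2. The list's sum was 877 and 1120 CPM in Small 1 and 2 and 631 and 1190 CPM in Medium 1 and 2. The sums thus overlapped, and Medium was higher in number 2. Vcam1, an adhesion molecule of marrow macrophages and stroma, read 117 and 74.5 CPM in Small and 66 and 21.1 CPM in Medium, and C1qa, a complement gene of macrophages, read 3.24 and 3.36 CPM in Small and 1.69 and 0.924 CPM in Medium. The list's antigen presentation genes Cd74, H2-Ab1 and H2-Aa had fitted log2 fold changes of 0.17, 0.16 and 0.48. Endothelial and stromal genes had a positive median, 0.53 (0.44 and 0.45 within the numbers, and 0.17 without Medium 1), with 7 of 18 genes tested above in both Medium libraries (38.9%, against 16.6%). Fabp4, a fatty acid binding protein, read 5.38 and 5.07 CPM in Small and 16.9 and 27.8 CPM in Medium (2.10, SE 0.97). Igfbp7 read 7.2 and 4.93 CPM in Small and 13.5 and 15.8 CPM in Medium, and Kdr, a receptor of endothelial growth factor, read 1.17 and 3.64 CPM against 6.25 and 8.38 CPM. Their levels were low, and the sum over the list was 327 and 285 CPM in Small and 332 and 351 CPM in Medium. Pecam1, which HSCs also express, pointed the other way, at 61.1 and 94.8 CPM in Small and 37.9 and 81.1 CPM in Medium.

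The HSC identity list, 38 genes that mark or maintain these cells, differed between Medium and Small in number 1 more than in number 2. Within both numbers 17 genes were higher in Medium (44.7%, against 30.1% of all genes) and 3 were lower (7.89%, against 29.3%), and the median was 0.27, at 0.47 in number 1 and -0.01 in number 2. It was -0.12 without Small 1 and 0.76 without Small 2. The sums were 2484 and 4741 CPM in Small 1 and 2 and 3326 and 4466 CPM in Medium 1 and 2. Both Medium libraries were above both Small libraries for 8 genes (21.1%, against 16.6%): Hoxb5, Tcf15, Sult1a1, Pdzk1ip1, Neo1, Esam, Mllt3 and Ctnnal1. Pdzk1ip1 read 53.4 and 94.2 CPM in Small and 130 and 130 CPM in Medium (0.82, SE 0.49). Sult1a1, a sulfotransferase, read 21.8 and 27.3 CPM in Small and 49.3 and 40.5 CPM in Medium (0.87, SE 0.54), and Esam, an adhesion molecule of HSCs and endothelium, read 43 and 71.7 CPM against 77.5 and 91.4 CPM. Hoxb5, a homeobox gene that marks long-term HSCs, read 1.36 and 3 CPM in Small and 4.44 and 5.97 CPM in Medium (1.25, SE 0.76). Large 1 and 2 read 31.5 and 64.6 CPM for Pdzk1ip1, 6.5 and 18.7 CPM for Sult1a1 and 27.1 and 63 CPM for Esam. For these 3 genes the Large value of each number was below the Medium value of that number.

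Gata2 and Bmi1, transcriptional regulators that HSCs need, were the 2 members below in both Medium libraries (5.26%, against 14.3%). Gata2 read 248 and 179 CPM in Small and 158 and 131 CPM in Medium (-0.56, SE 0.26), and Bmi1 read 60.9 and 70.7 CPM in Small and 41.3 and 58.1 CPM in Medium (-0.40, SE 0.36). Runx1, a regulator of blood formation, was the third lower in both numbers, at 78 and 63.1 CPM against 68.5 and 50.7 CPM. Other members were higher in Medium in number 1 and lower in number 2. Procr, the EPCR surface marker, read 30.3 and 145 CPM in Small and 39.1 and 124 CPM in Medium, Hlf read 59.1 and 338 CPM against 121 and 247 CPM, and Mecom read 25.7 and 91.3 CPM against 61.1 and 89 CPM. Angpt1, Fgd5, Meis1, Ndn, Tek and Tgm2 did the same, with positive differences in number 1 and negative ones in number 2, and so did Erg, Fli1, Itga6, Prdm16 and Rarb. The members higher in both numbers with overlapping groups were Cdkn1c, Hoxa5, Hoxa9, Lmo2, Ly6a, Slamf1, Socs2, Tal1 and Vwf. Gfi1b read 110 and 20.4 CPM in Small and 92.8 and 26.1 CPM in Medium, and Mycn read 60.8 and 36.3 CPM in Small and 60.8 and 36.1 CPM in Medium. None of the 38 had an unadjusted edgeR p under 0.05. Multipotent progenitor genes had a median of -0.27 over 17 genes (-0.51 and -0.12), with 8 lower in both numbers (47.1%, against 29.3%), and the median ran from -0.82 to 0.49 as each library was left out.

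Some genes pointed in clearly opposite directions in the 2 numbers, and the largest of these on the lower side of number 1 are genes of plasma cells, basophils and neutrophils. Jchain, which joins secreted antibodies, read 401 and 3.71 CPM in Small 1 and 2 and 42.8 and 112 CPM in Medium 1 and 2. The basophil protease genes Prss34 and Mcpt8 read 552 and 0.286 CPM and 181 and 1.64 CPM in Small, against 165 and 38.4 CPM and 62.2 and 24.7 CPM in Medium. Mmp8, a neutrophil collagenase, read 462 and 10.6 CPM in Small and 188 and 48.2 CPM in Medium, and Tlr13 read 24.5 and 1.71 CPM against 8.75 and 5.91 CPM. In all 5 genes Small 1 was the highest and Small 2 the lowest of the 4 libraries. On the other side, Gvin1 read 0 and 26.9 CPM in Small and 24.6 and 0.985 CPM in Medium, with Zhx3, Zfp654, Thnsl2 and Ireb2 next. The B cell list, with 15 of 17 genes tested, had medians of -0.18 in number 1 and 0.69 in number 2, and its main genes Ighm (1159 and 224 CPM in Small, 814 and 1050 CPM in Medium) and Igkc (942 and 50.8 CPM in Small, 788 and 424 CPM in Medium) overlapped.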

How the data were processed

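RNA-seq libraries of Small, Medium, Large and All HSCs (2 each) were used, with groups and replicate numbers from the sample titles. Tools named in the submitters' processing notes are RSEM 1.3.0, STAR 2.5.3a and SAMtools 1.3, with mm10 as the build. Neither the annotation release nor any use of strand is given in the sources used here. Deposited by the authors were estimated counts per gene, as whole numbers without scaling, and log2(TPM + 1) values. Of 50686 gene IDs, 50376 matched a symbol in GENCODE M21 (GRCm38, of which mm10 is another name). The 310 unmatched IDs took no more than 0.131% of the counts of any library.

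The counts were fitted with edgeR 4.0.16 (R 4.3.3): quasi-likelihood test, two-sided, TMM scaling, robust estimation, all 8 libraries with a single term for the group, and genes kept by filterByExpr with a minimum count of 10. P-values were adjusted over all 16066 genes by the Benjamini-Hochberg method. The steps were tested on simulated data. CPM values are TMM-scaled, and within-number differences are Medium minus Small on the log2(CPM + 2) scale, which understates changes of low genes. A count of 3 is 0.185 to 0.214 CPM in these 4 libraries, a floor that covers counting error alone: reads were amplified, had no molecular identifiers and are not independent. The smallest p that exact permutation of 2 and 2 libraries allows is 0.333.

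The genes compared and the 38 gene lists were chosen with earlier results of these data known. Named genes had a mean of at least 10 CPM over the 4 libraries, both libraries of 1 size above both of the other, and a symbol that is not a provisional model, pseudogene or immunoglobulin or T cell receptor segment. The 12 in each direction with the largest smaller within-number difference were taken. From each list, up to 3 members with the highest mean CPM and up to 3 with groups that do not overlap were taken, the sort antigen and HSC identity lists whole, and 5 genes in each opposite direction. Others are said to be chosen after their values were seen. Some genes that this rule takes are not reported here. Promoters came from RefSeq (GRCm38.p6), 1 start per gene, the first listed. Alternatives were DESeq2 1.42.0 and limma 3.58.1 (voom), other scaling, filters and pseudocounts, and the deposited log2(TPM + 1) values. Further ones were a replicate block, crossed replicate numbers, and leaving out each library. The PD, rapamycin and vehicle mice named in the series design were not analysed here.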

Additional observations from a re-analysis of the deposited data

How the results depend on the processing

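The titles number the libraries but do not say what a number shares. Deviations of the 2 Small libraries from each other and of the 2 Medium libraries from each other correlated at 0.60 across genes. With the replicate number as a block, edgeR called 0 genes at an adjusted p under 0.05 (smallest adjusted p 0.146), limma-voom 0 and DESeq2 518. The genes at an unadjusted p under 0.05 were then 2007 in edgeR (981 higher, 1026 lower), 2138 in limma-voom (981 and 1157) and 2231 in DESeq2 (1077 and 1154), against 695. The block fits with DESeq2 and limma-voom, and the removal of the trend on GC content, were added after seeing the data.

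Without a block, DESeq2 called 43 genes and edgeR without a filter on low counts 73, of 28543 tested. At an unadjusted p under 0.05 the latter gave 1085 genes (476 lower), and a fit of only the 4 libraries gave 453 (144 lower). Leaving out each library gave 0 calls, and 363 to 650 genes at an unadjusted p under 0.05 (177 to 473 higher, 136 to 186 lower); the lone library of a group is then assumed to vary like the other groups. Genes differing by at least 1 within both numbers were 153 higher and 58 lower on the deposited log2(TPM + 1) scale, 361 and 128 with a pseudocount of 0.5 CPM, and 666 and 460 with a minimum of 0.5. These counts need both numbers, so no library could be left out.

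List medians ran, as each library was left out, from -0.82 to 0.49 for multipotent progenitors, from 0.42 to 0.68 for cytosolic ribosomal proteins, from -0.04 to 0.69 for nuclear oxidative phosphorylation, from 0.30 to 0.84 for mitochondrially encoded, from -1.23 to 0.10 for primary granule and progenitor, from -1.44 to 0.35 for granulocyte and monocyte, from -0.49 to -0.44 for macrophage and dendritic, from 0.17 to 0.89 for endothelial and stromal. The ribosomal protein list was positive under every alternative run, with 0.45 after removal of the length trend. The endothelial and stromal median was 0.55 on the deposited scale, 0.66 with a pseudocount of 0.5 CPM, 0.57 with a minimum count of 50, 0.51 without the length trend, 0.55 without both trends and 0.72 with the block. The cause of these shifts was not tested.

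Of 160 named genes, 95 kept the sign of the fitted log2 fold change in every fit run. DESeq2 called 15 of them (43 of all 16066 genes), edgeR without a filter 22 (73 of 28543), and DESeq2 with the block 52 (518 of 16066). Genes among the 160 were chosen for agreeing differences or for a DESeq2 call, so these counts follow in part from the choice. With limma-voom the sign turned for Gfi1b (0.02), Gvin1 (2.57), Hlf (0.31), Jchain (0.74), Mcpt8 (1.05), Mmp8 (0.38), Procr (0.09), Prss34 (2.40), Thnsl2 (1.13), Tlr13 (0.08), Tmsb4x (0.04). With minimum count 50 the sign turned for Mycn (0.02), Zfp654 (0.00). In a fit of only the 4 Small and Medium libraries the sign turned for Mycn (0.00). With replicate block the sign turned for Gfi1b (0.03), Gvin1 (0.24), Hlf (0.35), Procr (0.11), Thnsl2 (0.71), Tmsb4x (0.05). With replicate block, DESeq2 the sign turned for Gfi1b (0.02), Gvin1 (0.25), Hlf (0.34), Mcpt8 (0.08), Mmp8 (0.05), Procr (0.11), Thnsl2 (0.73), Tmsb4x (0.04). With replicate block, limma-voom the sign turned for Hlf (0.06), Thnsl2 (0.19), Tmsb4x (0.01).

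Leaving out 1 library turned the sign for 65 named genes, with these ranges of log2 fold change: Actb -0.04 to 0.18, Angpt1 -0.03 to 0.89, Atp5a1 -0.18 to 0.04, Atp5b -0.17 to 0.11, Cd48 -0.93 to 0.19, Cd74 -0.99 to 1.09, Cdkn1c -0.50 to 1.0, Ctsg -1.18 to 0.61, Eef1a1 -0.08 to 0.40, Eif1 -0.21 to 0.27, Eif5a -0.35 to 0.30, Elane -1.43 to 0.50, Epx -11.07 to 0.52, Erg -0.30 to 1.36, Fgd5 -0.68 to 1.5, Fli1 -0.16 to 0.21, Gfi1b -1.32 to 1.54, Gm28437 -0.01 to 0.57, Gvin1 -3.76 to 10.64, H2-Aa -0.06 to 1.09, H2-Ab1 -0.40 to 0.57, Hlf -0.88 to 1.64, Hoxa5 -0.21 to 2.33, Hoxa9 -0.45 to 0.99, Ighm -0.32 to 2.06, Igkc -0.64 to 3.57, Ireb2 -0.62 to 0.82, Itga6 -0.44 to 0.16, Jchain -2.38 to 4.38, Lmo2 -0.28 to 0.85, Ly6a -0.87 to 2.32, Lyz2 -1.0 to 0.31, Map1lc3b -0.56 to 0.36, Mcpt8 -2.06 to 4.72, Mecom -0.28 to 1.54, Meis1 -0.32 to 0.72, Mmp8 -2.30 to 3.47, Mpo -1.83 to 0.19, Mycn -0.43 to 0.41, Ndn -0.35 to 1.01, Ngp -2.18 to 0.12, Pecam1 -1.03 to 0.05, Prdm16 -0.61 to 0.53, Procr -1.15 to 1.43, Prss34 -2.85 to 8.43, Rarb -1.08 to 0.87, Rheb -0.26 to 0.48, Rpl10 -0.07 to 0.90, Rpl27 -0.05 to 0.53, Rpl5 -0.45 to 0.24, S100a8 -1.78 to 0.79, Slamf1 -0.16 to 1.20, Socs2 -0.08 to 1.95, Tal1 -0.19 to 0.66, Tek -0.58 to 0.18, Tgm2 -0.10 to 0.31, Thnsl2 -1.03 to 3.17, Tlr13 -1.74 to 2.09, Tmsb4x -0.45 to 0.56, Vwf -0.09 to 0.63, Zfp654 -1.48 to 0.70, Zhx3 -1.41 to 0.71, mt-Atp6 -0.11 to 0.73, mt-Co1 -0.10 to 0.79, mt-Cytb -0.03 to 0.45.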

Other observations

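Of the metabolic lists, glycolysis had a median difference of -0.08 over 20 genes (-0.21 in number 1 and 0.00 in number 2), with 5 below in both Medium libraries (25%, against 14.3% of all genes). Fatty acid oxidation had a median of -0.05 over 19 genes tested, with 6 below (31.6%) and 0 above. Genes of the integrated stress and unfolded protein response had a median of -0.16 over 27 genes, with 13 lower in both numbers (48.1%, against 29.3%) and 4 below in both Medium libraries (14.8%). The 30 chromatin regulators had a median of 0.02, with 6 above (20%, against 16.6%) and 4 below (13.3%). The 34 interferon response genes had a median of 0.08 (from -0.28 without Small 1 to 0.51 without Medium 1), with 5 above (14.7%) and 0 below.

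An immunoglobulin heavy and light chain segment, both chosen after their values were seen, were present in both Medium libraries and nearly absent from both Small ones. Ighv11-2, at chr12:114048241-114048812 (GRCm38), read 0 and 0.143 CPM in Small 1 and 2 and 179 and 179 CPM in Medium 1 and 2. Igkv14-126, at chr6:67896172-67896642, read 0 CPM in both Small libraries and 334 and 288 CPM in Medium, at least 1522-fold higher in Medium against a floor of 3 counts per library. In Large 1 and 2 Ighv11-2 read 0.214 and 353 CPM and Igkv14-126 read 0.286 and 624 CPM. In All 1 and 2 they read 0.488 and 2.03 CPM and 1.18 and 2.7 CPM. The summed B cell list was 2577 and 373 CPM in Small and 1718 and 1743 CPM in Medium, so it did not separate the sizes as these segments did. The adjusted p of DESeq2 was 0.01 for Ighv11-2 and 0.0012 for Igkv14-126, and edgeR's was 1. DESeq2 gave smaller adjusted p to segments present in 1 of the 4 libraries: 1.2e-07 for Ighv1-80, at 32.3 CPM in Small 1 and 0 in the others, and 0.0004 for Igkv17-127, at 248 CPM in Medium 1 and 0 in the others. A small DESeq2 p for such a segment therefore does not show that the libraries of a size agree. Reads of related variable segments were split by estimation and are uncertain.

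Some of the genes called by DESeq2 and not by the main edgeR fit are, as background, large proteins of DNA repair and chromatin. Those given here were chosen after their values were seen. Rif1, of telomeres and break repair, read 15.1 and 18.1 CPM in Small and 75.7 and 41.9 CPM in Medium (DESeq2 adjusted p = 0.0096). Prkdc, the catalytic subunit of DNA-dependent protein kinase, read 14.8 and 18.7 CPM in Small and 43.5 and 36.8 CPM in Medium. Kmt2e, a chromatin regulator that HSCs need, read 38.8 and 44.4 CPM in Small and 84.5 and 83.1 CPM in Medium.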
